A study of Mus musculus with 29 samples.

Results

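The comparison described here sets the oldest somites of the mouse embryo at embryonic day 9.0 against the youngest fully formed ones. The members were chosen by their labels: 4 libraries titled SOMD (somite 10 onward) and 4 titled SOMB (somites 2 to 5), 8 of the 29 libraries of the series. Somites are numbered from the youngest, since a group named SOMA holds the presomitic mesoderm with the last somite to form. SOMC (somites 6 to 9, 4 libraries) lies between the groups compared and is given beside them. SOMA (3 libraries) enters the shared fit but no comparison. All 15 libraries came from explants of Dll1-YFP embryos on the C57BL/6 strain that were dissociated and sorted for YFP-positive cells of the Dll1 lineage, with no treatment named for these groups. Dll1 encodes a Notch ligand of the presomitic mesoderm, so the sort takes that tissue's descendants, together with any other cell that carries the mark. The labels do not say how the mark was built, how many embryos entered a library or whether replicates are separate embryos, so p-values measure only the spread between these libraries. The SOMD labels name somite 13, 14, 15 and 16 as the last for replicates 1, 2, 3 and 4; these numbers rise with the replicate number, could not be checked against another source and enter no result. Each library is named below by group and replicate (SOMD1 is SOMD replicate 1).

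A somite is a ball of paraxial mesoderm that buds from the front of the presomitic mesoderm. Its ventral side turns into sclerotome, the source of vertebrae and ribs, and its dorsal side into dermomyotome, which gives skin connective tissue and the myotome, the first skeletal muscle. Maturation and position run together along the body: older somites lie further forward, and Hox genes mark the position of each. Somite age and body level therefore cannot be told apart in SOMD against SOMB.

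Counts of reads in genes ran from 11541131 to 27838317 per library over SOMB and SOMD. Reads in no annotated gene made 7.57 to 12.42% of the total, with SOMB1, SOMD1 and SOMD4 at the high end (12% or more) and the other 5 libraries at or under 10.7%. SOMD1 and SOMD4 were far closer to each other than any other pair: a chi-square test of their counts gave 1.908 per degree of freedom, against 9.24 to 42.274 for the other 11 pairs within SOMB and within SOMD. The difference still exceeded sampling noise, so they were kept as 2 libraries. Repeat libraries of the same RNA could exceed it too, so the test cannot show that SOMD1 and SOMD4 are separate samples. The main p-values and SDs count them as separate. Calls and counts that changed when SOMD1 and SOMD4 were summed into 1 are given beside the results. Markers of the labelled tissue were present in all 8 libraries: Meox1, a factor of formed somites, was at 213.8 to 467.9 counts per 1000000 scaled reads (CPM) and Pax1, a factor of sclerotome, at 37.6 to 106.9 CPM.

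Of 13790 genes tested, 834 (6.05%) were higher and 604 (4.38%) lower in SOMD at an adjusted p under 0.05, 10.4% in all. The calls came from edgeR's quasi-likelihood test with Benjamini-Hochberg adjustment over all genes, and a log2 difference is always SOMD minus SOMB, with its standard error (SE). The difference was 2-fold or more for 374 of the higher and 235 of the lower genes, and the median over all genes tested was 0.00. Summing SOMD1 and SOMD4 left 502 higher (3.64%) and 360 lower genes (2.61%), 6.25% in all, of which 501 and 359 were among the first calls. The 4 SOMD libraries did not overlap the 4 SOMB libraries for 702 of the 834 higher and 498 of the 604 lower genes. Over all genes tested 7.47% and 5.55% did not overlap in these directions. The calls were made from the same values, so these counts add no support to them. With only the libraries under 11% of reads in no gene, which leave 3 SOMB and 2 SOMD libraries, 137 genes were called higher and 105 lower. SOMC was in the shared fit but not in the contrast. Its mean lay between the SOMB and SOMD means for 773 of the higher and 545 of the lower genes. The median position was 46.3% and 45.5% of the log2 distance from SOMB to SOMD. These genes were called for a gap between SOMB and SOMD, and a SOMC mean can fall inside a wide gap for that reason alone. No such share was taken over all genes tested, so these counts cannot show that SOMC is intermediate.

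**Figure D1:**
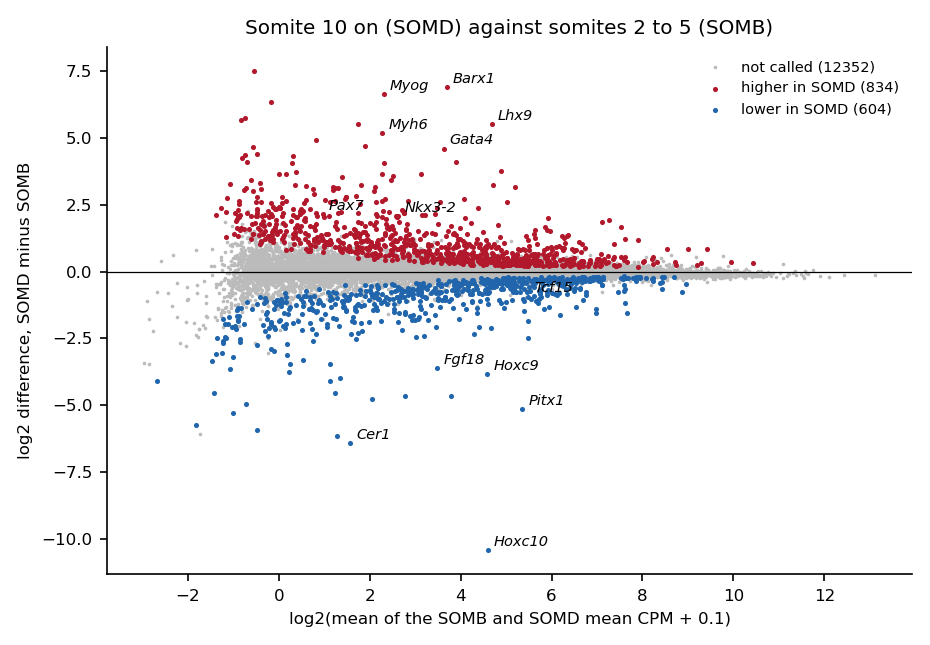
Each point is 1 of 13790 genes, placed by log2 of its mean CPM over both groups plus 0.1 (horizontal axis) and by the log2 difference of SOMD minus SOMB (vertical axis). Red points are the 834 genes called higher and blue points the 604 called lower at an adjusted p of 0.05; grey points were not called.

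Several muscle genes were higher in the older somites, some of them shared between skeletal and heart muscle. Myog, which encodes myogenin, the factor that drives myoblasts into differentiation, was at 0.176, 0.0817, 0.0671 and 0 CPM in SOMB1 to SOMB4 (7 reads in all) and at 13.0, 7.58, 5.27 and 12.6 CPM in SOMD1 to SOMD4 (717 reads). All 4 SOMD libraries were above all 4 SOMB libraries, and SOMC lay between them at 2.07 ± 1.81 CPM (SD, n = 4). The pooled counts gave a 117-fold higher level in SOMD, with an exact 95% interval of 56.4 to 292 that covers counting error only, and the adjusted p was 1.89e-04. Of Myf5 and Myod1, the factors that commit cells to muscle, Myf5 was not called and Myod1 was too low to be tested. Myf5 was at 5.16 ± 1.99 CPM in SOMB and 6.10 ± 0.667 CPM in SOMD (adjusted p = 0.686), and Myod1 had 2 reads in SOMB and 9 in SOMD, a 5.13-fold higher pooled level in SOMD with an exact 95% interval of 1.06 to 48.8 for counting error only. Myf6, a later factor of the same family, was at 0.341 ± 0.284 and 0.915 ± 0.279 CPM, with an adjusted p of 0.129. Of the cofactors, Mef2c was higher at 0.84 ± 0.25 (log2, SE; adjusted p = 0.0464), a call lost with SOMD1 and SOMD4 summed (adjusted p = 0.128). Eya1, a cofactor in the same network, was lower: it stood at 49.3 to 60.3 CPM in SOMB and 27.3 to 41.9 CPM in SOMD, with a log2 difference of -0.78 ± 0.14 (adjusted p = 0.00225). Six4 (adjusted p = 0.435) and Eya4 (0.0655) did not pass. The Mef2c call was also lost without each of SOMB1, SOMB2, SOMB4, SOMD1, SOMD2 and SOMD4 (adjusted p 0.0583 to 0.155).

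Most listed genes of muscle differentiation, many of them of the contractile apparatus, were higher as well. Of 20 tested members of a list of muscle differentiation genes, 13 were higher and 0 lower in SOMD, with a median log2 difference of 1.67 where all genes had 0.00 and 6.05% of genes were called higher. With SOMD1 and SOMD4 summed, 9 were higher. Ttn, which encodes the giant spring protein titin, was at 0.75, 0.327, 1.07 and 0.713 CPM in SOMB1 to SOMB4 and at 8.76, 14.5, 4.14 and 7.52 CPM in SOMD1 to SOMD4. Tnnt2, a thin-filament troponin of heart and early skeletal muscle, went from 1.01, 0.694, 1.07 and 0.855 CPM to 5.56, 14.8, 2.94 and 6.23 CPM. In both genes SOMD2 was highest and SOMD3 lowest of the SOMD libraries, and no SOMD library reached down to SOMB. Their log2 differences were 3.64 ± 0.42 (adjusted p = 6.46e-05) and 3.01 ± 0.42 (adjusted p = 2.87e-04).

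Acta1, skeletal muscle actin, was at 0.97, 0.776, 1.34 and 0.499 CPM in SOMB and 6.47, 2.58, 1.73 and 5.60 CPM in SOMD (log2 difference 2.21 ± 0.47, adjusted p = 0.00652). Myh3, the embryonic myosin heavy chain, was at 12.4 and 10.9 CPM in SOMD1 and SOMD4 but at 1.29 and 0.753 CPM in SOMD2 and SOMD3. SOMB held 10 reads of Myh3 in all, the pooled counts differed 59.9-fold (32.3 to 126 by counting error) and the adjusted p was 0.00283. The SOMD libraries thus split in opposite ways: SOMD1 and SOMD4 were high in Myh3, Acta1 and Myog, and SOMD2 was high in Ttn, Tnnt2 and Myl4 (9.13 CPM against 0.904 to 3.14 CPM in the other SOMD libraries). Cdh15, the cadherin of myoblasts, was higher by 1.59 ± 0.30 (adjusted p = 0.00266), and Tnni1, a slow-fibre troponin, by 0.87 ± 0.13 (adjusted p = 5.31e-04). The other higher members were Tnnc1, Tnnc2, Myl1, Myl4, Myh7, Neb and Chrna1, whose group means stayed under 4 CPM. The calls of Myl1 (adjusted p = 0.0661) and Neb (0.0527) were lost with SOMD1 and SOMD4 summed, and Myh7 and Chrna1 were then not tested. Without single libraries, Myl1 was lost without SOMB2, SOMB4, SOMD1 or SOMD4 (adjusted p 0.0622 to 0.102), Neb without SOMB2, SOMD1 or SOMD4 (0.051 to 0.107) and Chrna1 without SOMB1, SOMB3 or SOMB4 (0.0589 to 0.0761). Des and Actc1, which muscle precursors already make, were at 30.4 ± 5.12 and 20 ± 1.75 CPM in SOMB and at 29.6 ± 5.08 and 29.1 ± 11.4 CPM in SOMD, with adjusted p of 0.833 and 0.245. Myosin heavy chains are alike in sequence, so how reads were split between Myh3, Myh6 and Myh7 is uncertain.

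Myogenic factors bind E-boxes, and the promoters of 3 of these genes, all called higher in SOMD, are shown. Each is 300 bases, from 250 before to 50 after the start, from RefSeq on GRCm38.p6, read along the gene's strand. The genes were chosen after their values were seen. Capitals mark CAGNTG or its reverse CANCTG, the E-box form with an inner G or C, which 51.4% of all 32851 promoters of this length hold at least once, 18.2% at least 2 times and 5.16% at least 3 times. Myog lies at chr1:134289754-134290053 (plus strand), Acta1 at chr8:123894726-123895025 (minus strand) and the first Tnnt2 start at chr1:135836084-135836383 (plus strand).

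Myog: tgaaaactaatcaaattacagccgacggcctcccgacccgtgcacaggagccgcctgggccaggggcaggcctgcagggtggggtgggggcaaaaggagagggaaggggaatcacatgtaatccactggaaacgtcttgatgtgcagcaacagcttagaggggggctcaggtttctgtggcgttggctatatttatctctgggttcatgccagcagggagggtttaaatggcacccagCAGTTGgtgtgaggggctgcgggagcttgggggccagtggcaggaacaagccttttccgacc

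Acta1: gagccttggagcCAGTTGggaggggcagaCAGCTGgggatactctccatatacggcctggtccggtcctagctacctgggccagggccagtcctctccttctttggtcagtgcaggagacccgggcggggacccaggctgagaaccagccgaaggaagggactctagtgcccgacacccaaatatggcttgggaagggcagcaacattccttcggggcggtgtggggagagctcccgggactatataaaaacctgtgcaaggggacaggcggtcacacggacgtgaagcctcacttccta

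Tnnt2: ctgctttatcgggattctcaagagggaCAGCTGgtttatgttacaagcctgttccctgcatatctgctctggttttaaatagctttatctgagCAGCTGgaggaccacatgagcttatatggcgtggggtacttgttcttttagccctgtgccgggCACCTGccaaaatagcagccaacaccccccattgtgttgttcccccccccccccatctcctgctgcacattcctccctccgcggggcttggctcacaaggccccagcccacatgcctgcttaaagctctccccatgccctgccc

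The Myog window holds 1 match, at position -12 from the start, Acta1 holds 2 and Tnnt2 holds 3. Of the 26 muscle differentiation genes 23 had a promoter in the table, and 16 of these had at least 1 match in some start. That count is per gene over all its starts, whereas the 51.4% is per promoter, so they cannot be set against each other. A match is a description of letters and was not tied to binding.

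Dermomyotome genes parted into a group that was higher in SOMD and a group that was not called. Of 7 tested members, 3 were higher and 0 lower in SOMD, also with SOMD1 and SOMD4 summed, against 6.05% and 4.38% of all genes. The median log2 difference was -0.21, so the list as a whole was not higher. Its summed level was 107.5 to 133.6 CPM in SOMB and 75.2 to 118.3 CPM in SOMD, with overlap between the groups. Pax7, a factor of dermomyotome and later of muscle stem cells, was at 0.529, 0.857, 0.805 and 0.499 CPM in SOMB1 to SOMB4 and at 3.86, 3.53, 1.81 and 2.90 CPM in SOMD1 to SOMD4. Lbx1, a factor of muscle precursors that migrate to limb and tongue, had 8 reads in SOMB and 238 in SOMD, where it was at 3.60, 2.41, 2.86 and 4.09 CPM. En1, which marks the central dermomyotome, had 8 and 163 reads. No SOMD library reached down to SOMB in any of the 3 genes. The log2 difference of Pax7 was 2.14 ± 0.34 (adjusted p = 7.26e-04), and the pooled counts of Lbx1 and En1 differed 33.9-fold (16.9 to 79.5) and 23.2-fold (11.5 to 54.7). Pax3, the factor of early dermomyotome, was at 49.5 to 62.2 CPM in SOMB and at 26.0, 49.1, 31.9 and 25.4 CPM in SOMD. The groups did not overlap, yet the difference of -0.70 ± 0.24 missed the threshold (adjusted p = 0.0805). Dmrt2 (adjusted p = 0.135), Sim1 (0.454) and Met (0.399) did not pass either.

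Sclerotome factors did not move as 1 set: of 7 counted, 2 were higher, 1 lower and 4 not called. Over all genes 6.05% were called higher and 4.38% lower. Nkx3-2, which carries sclerotome toward cartilage, was at 2.69, 3.14, 1.75 and 1.71 CPM in SOMB1 to SOMB4 and at 11.7, 8.35, 7.61 and 11.9 CPM in SOMD1 to SOMD4. Zic1, a zinc-finger factor of dorsal somite and neural tube, went from 9.44, 19.9, 3.29 and 2.42 CPM to 71.2, 44.5, 34.9 and 72.7 CPM. All SOMD libraries lay above all SOMB libraries in both, and the log2 differences were 2.06 ± 0.25 (adjusted p = 9.48e-05) and 2.61 ± 0.52 (adjusted p = 0.00397). Foxc2, a forkhead factor of paraxial mesoderm, was lower (log2 difference -0.55 ± 0.14, adjusted p = 0.0182), a call lost without SOMD1 or SOMD4 (adjusted p = 0.0704 and 0.0769) and with the 2 summed (0.0671).

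Pax1 and Pax9, the paired-box factors that define sclerotome, were not called. Pax1 was at 56.7, 106.9, 37.6 and 41.0 CPM in SOMB and at 69.1, 85.9, 76.0 and 69.5 CPM in SOMD, so the SOMB libraries spanned the whole SOMD range (log2 difference 0.30 ± 0.36, adjusted p = 0.628). Pax9 was at 8.13 ± 4.03 and 13.3 ± 3.58 CPM (adjusted p = 0.302). AI646519, the long non-coding RNA beside Pax1 that the RefSeq table lists as Peat, the transcript named in the series title, was at 1.5, 3.10, 0.47 and 1.07 CPM in SOMB and at 2.42, 2.07, 2.03 and 2.31 CPM in SOMD. SOMB2 was the highest SOMB library for Pax1, Pax9 and AI646519 alike, and the difference of AI646519 was 0.46 ± 0.38 (adjusted p = 0.467). Foxc1 (adjusted p = 0.86) and Gli2 (0.676) did not pass.

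The cartilage program was higher in part. Of 14 tested members 5 were higher and 1 lower, with a median log2 difference of 0.44, where 6.05% and 4.38% of all genes were called in these directions. With SOMD1 and SOMD4 summed, 3 were higher and 1 lower. Col2a1, the main collagen of cartilage, was at 117.4, 125.6, 130.2 and 99.4 CPM in SOMB1 to SOMB4 and at 302.9, 294.6, 214.6 and 273.0 CPM in SOMD1 to SOMD4. Its difference of 1.20 ± 0.13 (adjusted p = 3.45e-05) went with that of Col9a1, a collagen on the surface of the same fibrils, at 1.57 ± 0.22 (adjusted p = 3.35e-04). Neither gene overlapped between the groups. Runx2, the factor of hypertrophic cartilage and bone, was low: 0.201 to 0.285 CPM in SOMB, 2.62 and 2.55 CPM in SOMD1 and SOMD4, and 0.775 and 0.678 CPM in SOMD2 and SOMD3. It was called at 2.77 ± 0.46 (adjusted p = 0.00104).

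Sox9, the master factor of cartilage, was at 26.6, 42.8, 22.0 and 16.4 CPM in SOMB and at 58.4, 46.2, 38.9 and 53.7 CPM in SOMD, with SOMB2 reaching into the SOMD range. Its call at 0.86 ± 0.26 (adjusted p = 0.0448) was lost with SOMD1 and SOMD4 summed (0.126) and without each of SOMB1, SOMB3, SOMB4, SOMD1, SOMD2 and SOMD4 (0.0631 to 0.138). Col11a1, a further fibril collagen, was called at 0.96 ± 0.25 (adjusted p = 0.0234) and lost when the 2 libraries were summed (0.0861) and without SOMB2, SOMB3, SOMB4, SOMD1 or SOMD4 (0.0505 to 0.098). Sox6, a partner of Sox9, was lower: 42.6 to 56.9 CPM in SOMB against 29.9 to 37.0 CPM in SOMD, a difference of -0.66 ± 0.11 (adjusted p = 8.69e-04). Acan, Comp and Matn1, which mature cartilage secretes, were too low to be tested, as were Lect1 and Runx3.

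Some genes of the matrix of loose mesenchyme were higher. Of 20 tested matrix genes 8 were higher, 0 lower and 12 not called, with a median of 0.38, where 6.05% of all genes were called higher, and 6 were higher with SOMD1 and SOMD4 summed. The summed level of the list overlapped between the groups, at 2940 to 4274.3 CPM in SOMB and 3590 to 4881.5 CPM in SOMD, and Fn1, Col1a1, Col1a2, Col5a1, Col5a2 and Fbn2 were among those not called. Vcan, the large proteoglycan that surrounds sclerotome cells, was at 296.8 to 404.6 CPM in SOMB and 570.8 to 693.5 CPM in SOMD (0.83 ± 0.10, adjusted p = 6.27e-05). The 3 chains of collagen VI moved together: Col6a1 by 1.23 ± 0.20, Col6a2 by 1.40 ± 0.20 and Col6a3 by 1.96 ± 0.34 (adjusted p = 7.62e-04, 3.39e-04 and 0.00159). Lum, a small proteoglycan that spaces collagen fibrils, stood at 12 to 15.8 CPM in SOMB and 26.6 to 31.1 CPM in SOMD (1.04 ± 0.15, adjusted p = 4.05e-04). Fbn1, the microfibril protein fibrillin, was higher by 0.94 ± 0.16 (adjusted p = 0.0016). Col3a1 (0.85 ± 0.25, adjusted p = 0.0419) and Emilin1 (0.46 ± 0.11, 0.0169) were lost when SOMD1 and SOMD4 were summed (0.11 and 0.0518). Col3a1 was also lost without SOMB2, SOMB3, SOMB4, SOMD1, SOMD2 or SOMD4 (adjusted p of 0.0683 or more), and Emilin1 without SOMD1 (0.0576) and, with a value that rounds to the threshold, without SOMB1 (0.05).

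Of the tendon precursor genes, 1 of 4 tested was called, where 10.4% of all genes were called in either direction. Tnc, a matrix protein of tendon and of mesenchyme around somites, was at 40.3, 23.3, 27.3 and 18.6 CPM in SOMB and at 108.0, 94.6, 44.6 and 103.4 CPM in SOMD (1.68 ± 0.31, adjusted p = 0.00214). Scx, the factor that defines tendon precursors, was at 1.01 ± 0.27 and 1.31 ± 0.266 CPM (adjusted p = 0.395).

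Guidance cues, by which somites steer axons and crest cells, changed in both directions. Of 18 tested, 6 were higher and 2 lower, with the same counts after SOMD1 and SOMD4 were summed. Over all genes 6.05% were called higher and 4.38% lower (3.64% and 2.61% summed). Sema3d, a secreted repellent, was at 3.97, 6.82, 3.76 and 2.85 CPM in SOMB1 to SOMB4 and at 32, 25.7, 22.2 and 36.6 CPM in SOMD1 to SOMD4 (2.71 ± 0.24, adjusted p = 7.44e-06). Its relative Sema3a was at 55.3 to 63.5 CPM in SOMB and 113.9 to 162.4 CPM in SOMD (1.11 ± 0.13, adjusted p = 7.59e-05). Sema3c went the other way, from 37.1 to 48.9 CPM in SOMB down to 18.2 to 21.8 CPM in SOMD (-1.15 ± 0.11, adjusted p = 1.63e-05), as did Sema3e (-1.70 ± 0.35, adjusted p = 0.00553). No library of either group crossed into the other for these 4 semaphorins. The ephrin receptors Epha3 and Epha7 were higher by 1.83 ± 0.37 and 0.87 ± 0.15 (adjusted p = 0.00471 and 0.00145), Efnb2, a ligand, by 0.84 ± 0.20 (0.0135), and Slit2, an axon repellent, by 0.45 ± 0.11 (0.0182). With SOMD1 and SOMD4 summed the adjusted p of Slit2 was 0.0599, and it was not called without SOMB4, SOMD1 or SOMD4 either (0.0524 to 0.0735).

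**Figure D2:**
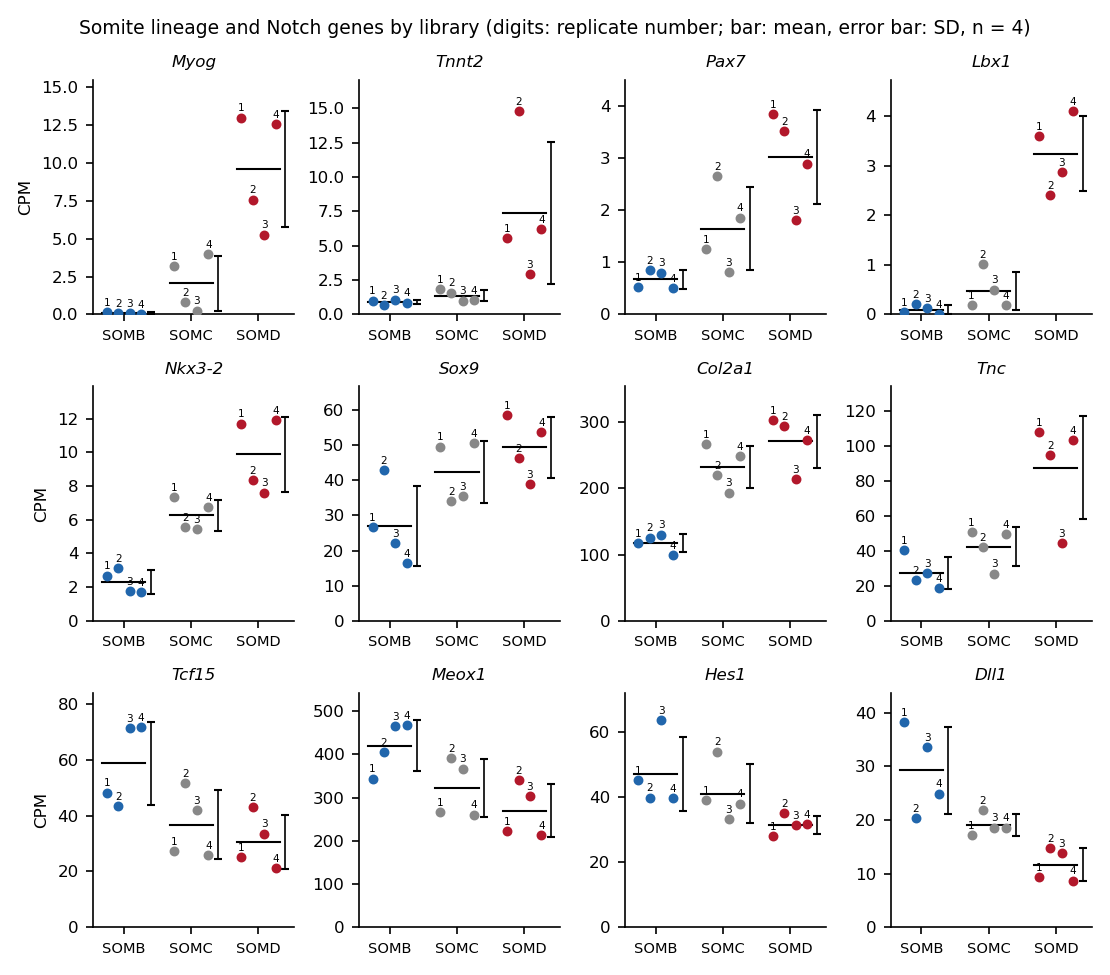
CPM of 12 genes of muscle, dermomyotome, sclerotome, cartilage, tendon, formed somites and Notch signalling in the 4 libraries each of SOMB (blue), SOMC (grey) and SOMD (red), on linear axes that start at 0; digits are replicate numbers, horizontal bars means and error bars the SD (n = 4). For Myog, Tnnt2, Pax7, Lbx1, Nkx3-2, Col2a1 and Tnc every SOMD library is above every SOMB library, and for Tcf15, Meox1, Hes1 and Dll1 every one is below.

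Genes listed for formed somites, some of which the text below describes as factors of other mesenchyme, changed in both directions. Of 8 tested, 2 were higher and 3 lower, and 1 was higher and 0 lower with SOMD1 and SOMD4 summed. Over all genes 6.05% were called higher and 4.38% lower (3.64% and 2.61% summed). Tcf15, which keeps the early somite epithelial, was at 48.2, 43.4, 71.3 and 71.6 CPM in SOMB1 to SOMB4 and at 25, 43.0, 33.5 and 21.3 CPM in SOMD1 to SOMD4. The closest libraries, SOMB2 and SOMD2, nearly met. Meox1, a homeobox factor of somite polarity, was at 343.7, 405.6, 464.4 and 467.9 CPM against 223.2, 339.7, 303.0 and 213.8 CPM. For both genes SOMD1 and SOMD4 were the lowest libraries. The differences of -0.94 ± 0.25 for Tcf15 (adjusted p = 0.0223) and -0.64 ± 0.16 for Meox1 (0.0189) were not called with SOMD1 and SOMD4 summed (0.0803 and 0.0729). Tcf15 was lost without SOMB3, SOMB4, SOMD1 or SOMD4 (0.0539 to 0.0914) and Meox1 without SOMB4, SOMD1 or SOMD4 (0.0611 to 0.0769). Twist2, a factor of dermal and mesenchymal cells, was lower by a log2 value of -0.46 ± 0.13 (0.0313; 0.0561 when summed). Prrx1, a factor of limb and body-wall mesenchyme, was higher at 1.04 ± 0.21 (0.00391), and Tbx18, which marks the front part of each somite, at 0.66 ± 0.20 (0.046; 0.156 when summed). Tbx18 was lost without SOMB1, SOMB2, SOMB3, SOMB4, SOMD1 or SOMD4 (0.0632 to 0.169), and Twist2 without SOMB1, SOMB2, SOMB4 or any single SOMD library (0.0512 to 0.0755). Uncx, the marker of the rear part of each somite, was at 43.8 ± 9.57 and 29.9 ± 5.43 CPM (0.0877).

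Although neither group was dissected to hold presomitic mesoderm, part of its program was still seen in SOMB. Of 20 tested presomitic and tail bud genes 0 were higher and 7 lower in SOMD, with a median of -1.54. With SOMD1 and SOMD4 summed, 6 were lower. Over all genes 4.38% were called lower (2.61% summed). Cdx4, a caudal factor of the tail end, had 335 reads in SOMB and 4 in SOMD, a 73.5-fold difference in pooled counts (28.4 to 271), and was at 5.12, 2.69, 3.36 and 7.34 CPM in SOMB1 to SOMB4. Cdx2, its relative, was at 2.16 to 5.84 CPM in SOMB and 0.0654 to 0.377 CPM in SOMD (-4.53 ± 0.63, adjusted p = 2.66e-04). Evx1 was at 2.33 to 7.10 and 0.0861 to 0.392 CPM (-3.98 ± 0.52, adjusted p = 1.75e-04). T, which encodes Brachyury, the factor of nascent mesoderm, was at 1.92 to 3.18 and 0.392 to 1.05 CPM (-2.32 ± 0.41, adjusted p = 0.00165). Mesp2, the segmentation factor of the front presomitic mesoderm, was at 1.41 CPM in SOMB1 and at 0.163 to 0.47 CPM in the other SOMB libraries (-2.67 ± 0.74, adjusted p = 0.0295). The Mesp2 call was lost when SOMD1 and SOMD4 were summed (0.0603) and without SOMB1, SOMD1, SOMD2 or SOMD4 (0.0543 to 0.127). The remaining lower members, Dll1 and Dll3, are described with Notch signalling below.

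SOMB1 was the highest SOMB library for several core presomitic genes: Tbx6 was at 5.12 CPM there and 0.408 to 1.01 CPM in SOMB2 to SOMB4, Ripply2 at 1.41 against 0.134 to 0.428 CPM, and Hes7 at 2.73 against 0.531 to 0.94 CPM. None of the 3 was called between the groups (adjusted p = 0.105, 0.116 and 0.196). Msgn1 (0.216), Fgf8 (0.99), Fgf17 (0.297), Wnt3a (0.365) and Cyp26a1 (0.816) did not pass either. Whether presomitic cells in the SOMB dissection take part in these differences was not tested.

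Notch signalling, which times segmentation and then acts within somites and in vessels, was lower in SOMD in some of its ligands and targets. Dll1, the ligand by which the cells were marked, was at 38.2, 20.3, 33.6 and 24.9 CPM in SOMB1 to SOMB4 and at 9.42, 14.8, 13.8 and 8.71 CPM in SOMD1 to SOMD4 (-1.35 ± 0.20, adjusted p = 4.69e-04). Dll3, which holds Notch back in the same cell, was at 5.59 to 14.0 and 2.34 to 3.27 CPM (-1.89 ± 0.28, adjusted p = 4.70e-04). Jag1, a ligand of the Jagged type, was at 37.2 to 66.8 and 21.2 to 32.4 CPM (-1.03 ± 0.17, adjusted p = 7.90e-04). These were the 3 called genes among 12 tested Notch components, where 4.38% of all genes were called lower. Dll1 and Dll3 also count among the 7 lower presomitic and tail bud genes above, so the lists are not separate evidence. The ligands Dll4 and Jag2, the 4 Notch receptors and the 3 Fringe genes were not called.

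Of 6 Notch targets 0 were higher and 4 lower, with a median of -0.89, against 4.38% of all genes called lower. Hey1 had the smallest SE of the 4: it was at 30.4, 30.2, 34.6 and 33.7 CPM in SOMB1 to SOMB4 against 15.6, 16.6, 15.1 and 15.8 CPM in SOMD1 to SOMD4 (-1.03 ± 0.06, adjusted p = 3.24e-07). Hey2 was at 20.2, 15.4, 13.9 and 16.0 CPM in SOMB and at 6.02, 3.62, 4.67 and 6.51 CPM in SOMD (-1.63 ± 0.19, adjusted p = 5.90e-05). Nrarp, a feedback inhibitor, was at 11.9 to 20 and 5.95 to 9.71 CPM (-1.0 ± 0.21, adjusted p = 0.00502). Hes1, the widely used target, was at 39.6 to 63.6 and 28.1 to 35.0 CPM; its call (-0.58 ± 0.18, adjusted p = 0.0473) was lost with SOMD1 and SOMD4 summed (0.126) and without SOMB1, SOMB3 or any single SOMD library (0.0555 to 0.145). Heyl, at 13.4 ± 7.11 and 21.1 ± 3.22 CPM, stood the other way and was not called (0.143), and nor was Hes5 (0.239).

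The Hey2 promoter (RefSeq, GRCm38.p6, chr10:30842734-30843033, minus strand, 250 bases before to 50 after the start) is shown since Hey2 had the largest difference among the 4 called targets. Capitals mark TGGGAA or its reverse TTCCCA, the core that the Notch partner RBPJ binds, which 25.6% of all promoters in the table hold and 3.79% hold at least 2 times.

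Hey2: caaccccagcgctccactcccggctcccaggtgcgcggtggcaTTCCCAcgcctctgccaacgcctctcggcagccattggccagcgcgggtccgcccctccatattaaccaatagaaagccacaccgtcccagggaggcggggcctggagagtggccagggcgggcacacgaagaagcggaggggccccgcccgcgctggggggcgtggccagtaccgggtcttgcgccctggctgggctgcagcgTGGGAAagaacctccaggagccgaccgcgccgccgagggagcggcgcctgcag

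There are 2 matches in it, at positions -207 and -3. Of the 3 listed Notch targets with a promoter in the table, Hey2 and Hes5 held a match in some start and Nrarp did not. This too is per gene, whereas the share of all promoters is per promoter.

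Some genes of other signalling pathways were called. Over all genes 10.4% were called in either direction, and the counts below were not tested against that share. Of 5 tested Hedgehog targets 0 were called by edgeR's test and 0 by DESeq2, and 2 had an unadjusted p under 0.05. Gli1 was at 86.9 ± 16.8 CPM in SOMB and 90.4 ± 17.9 CPM in SOMD (adjusted p = 0.898), and Ptch1 at 193.7 ± 45.9 and 169.5 ± 44.0 CPM (0.518). Hhip, which binds the ligand, was at 20.6 ± 2.33 and 27.3 ± 2.69 CPM (0.137). Of 4 genes that Hedgehog signalling lowers, 0 were called by edgeR's test and 1 by DESeq2, and 2 had an unadjusted p under 0.05 (adjusted p of Cdon 0.0605, Gas1 0.111 and Gli3 0.274). Of 11 BMP targets 1 was called: Bambi, a decoy receptor, was at 29.2 to 40.6 and 46.4 to 56.1 CPM (0.47 ± 0.10, adjusted p = 0.00761). Of 9 BMP antagonists 1 was called: Nbl1 was at 2.82 to 4.90 and 7.38 to 10.3 CPM (1.12 ± 0.18, adjusted p = 8.75e-04).

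Of 11 retinoic acid genes 1 was called. Cyp26b1, which breaks retinoic acid down, was at 2.21, 1.76, 3.22 and 2.00 CPM in SOMB and at 13.3, 10.4, 6.85 and 12.7 CPM in SOMD (2.26 ± 0.29, adjusted p = 1.37e-04). Aldh1a2, which makes retinoic acid, was at 215.3 ± 22.4 and 249.3 ± 76.6 CPM (0.664), with SOMD2 at 352.4 CPM and the other SOMD libraries at 189.7 to 262.7 CPM. Of 11 FGF targets Spry4, a feedback inhibitor, was called at 1.08 ± 0.33 (0.046), with SOMD2 at 5.43 CPM inside the SOMB range. Its call was lost when SOMD1 and SOMD4 were summed (0.151) and without SOMB2, SOMB3, SOMB4, SOMD1 or SOMD4 (0.0786 to 0.195). Of 11 Wnt targets Dkk1 (1.43 ± 0.37, 0.0212) and Apcdd1 (0.65 ± 0.17, 0.0252), both inhibitors, were higher and Rnf43 (-1.86 ± 0.56, 0.0441), which removes Wnt receptors, was lower. None of these 3 was called when SOMD1 and SOMD4 were summed (0.0738, 0.0771 and 0.083). Dkk1 was lost without SOMB2, SOMB4, SOMD1 or SOMD4 (0.0538 to 0.0994), Apcdd1 without SOMB2, SOMB4, SOMD1, SOMD3 or SOMD4 (0.0618 to 0.0897) and Rnf43 without SOMB1, SOMB3, SOMB4 or any single SOMD library (0.0601 to 0.137).

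**Figure D3:**
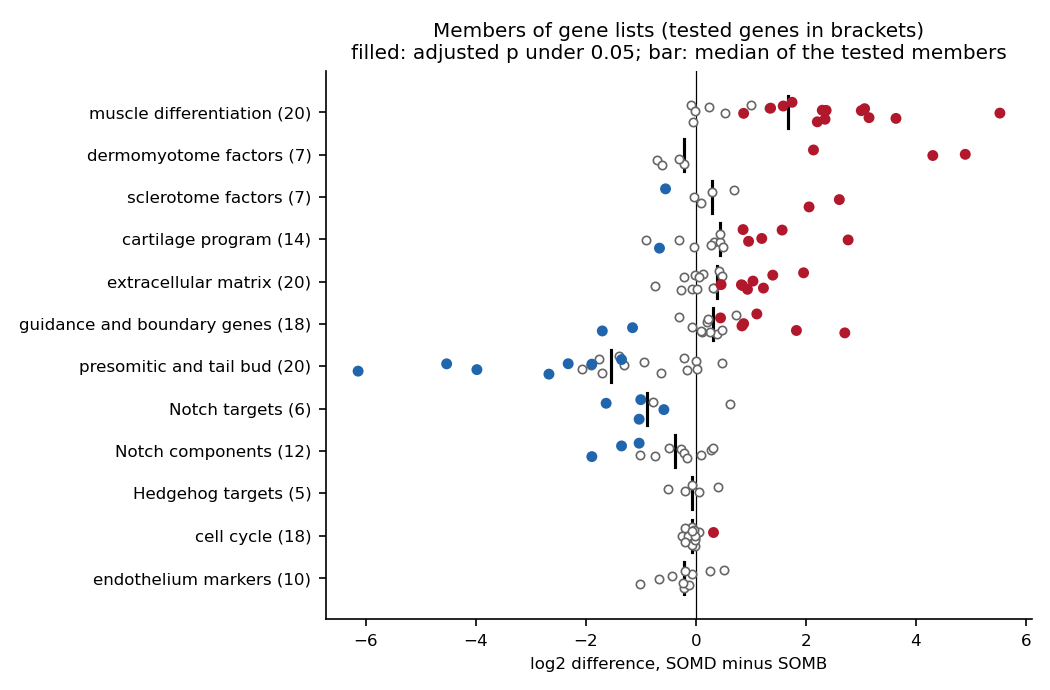
Log2 differences (SOMD minus SOMB, horizontal axis) of the tested members of 12 gene lists; filled red and blue points passed an adjusted p of 0.05, open points did not, and black bars are medians. The muscle differentiation median is 1.67, the presomitic and tail bud median -1.54 and the Notch target median -0.89, while the Hedgehog target and cell cycle medians are both -0.06.

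Hox genes differed by their place in the clusters. Of 14 genes counted in paralogue groups 1 to 5, 6 were higher and 1 lower, with a median of 0.38. Of 5 in groups 6 and 7, 0 were higher and 3 lower, with a median of -0.82. Of 16 in groups 8 to 13, 0 were higher and 6 lower, with a median of -0.96. Over all genes 6.05% were called higher and 4.38% lower. Genes of low group number act at the head end of the trunk and those of high number toward the tail, and SOMD lies further forward than SOMB.

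Among anterior genes, Hoxc5 was at 13.3, 12.9, 14.4 and 11.5 CPM in SOMB1 to SOMB4 and at 47.3, 35.0, 47.4 and 45.1 CPM in SOMD1 to SOMD4 (1.75 ± 0.13, adjusted p = 2.51e-06). Hoxa4 was at 5.55 to 6.98 and 19.6 to 22.4 CPM (1.70 ± 0.14, adjusted p = 4.19e-06). Hoxb5 (0.96 ± 0.12), Hoxb4 (0.83 ± 0.16), Hoxb2 (0.39 ± 0.07) and Hoxa2 (0.35 ± 0.08) were higher by less (adjusted p = 1.37e-04, 0.00264, 0.00116 and 0.00892), again with no overlap between the groups. Hoxd1 was lower (-0.79 ± 0.19, adjusted p = 0.013; 0.0505 without SOMD1 and 0.0553 without SOMD4). Hoxa3, Hoxa5, Hoxb1, Hoxb3, Hoxc4, Hoxd3 and Hoxd4 were not called.

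In the middle of the clusters Hoxb7 was at 29.8 to 33.0 and 16.0 to 19.0 CPM (-0.82 ± 0.09, adjusted p = 5.47e-05), and Hoxa7 was lower by a similar -0.84 ± 0.18 (0.00727). Hoxc6 (-0.48 ± 0.15, 0.0477) was lost when SOMD1 and SOMD4 were summed (0.0765) and without SOMB1, SOMB4 or any single SOMD library (0.0702 to 0.113). Hoxa6 (0.0599) and Hoxb6 (0.37) were not called.

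The tested HoxC genes of groups 8 to 11 were all called lower. Hoxc8 was at 71.2, 59.0, 54.1 and 95 CPM in SOMB and at 17.9, 23.2, 18.8 and 17.7 CPM in SOMD (-1.86 ± 0.24, adjusted p = 1.43e-04). Hoxc9 was at 45.6, 62.7, 24.9 and 45.2 against 3.79, 3.36, 2.94 and 2.62 CPM (-3.84 ± 0.35, adjusted p = 7.58e-06). Hoxc10 had 4162 reads in SOMB, at 73.9, 76.5, 24.2 and 18 CPM, and 2 reads in SOMD, both in SOMD4, so that the pooled counts differed 1830-fold (505 to 15100 by counting error alone, adjusted p = 4.00e-04). From Hoxc8 to Hoxc10 each further gene of the cluster was thus closer to 0 in SOMD. In SOMC, Hoxc10 was at 19.6 and 22.0 CPM in SOMC1 and SOMC4 and at 1.71 and 0.251 CPM in SOMC2 and SOMC3.

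Hoxc11 had 89 and 2 reads per group and was called (adjusted p = 0.0252), but not when SOMD1 and SOMD4 were summed (0.0547) nor without SOMB1, SOMD1, SOMD2 or SOMD4 (0.053 to 0.1). Hoxa13 had 103 and 1 reads (0.013; 0.0765 without SOMD4), with 74 of the 103 in SOMB1. Hoxb9, the most abundant posterior Hox gene here, was at 245.4 to 387.1 and 84.8 to 124.9 CPM (-1.55 ± 0.21, adjusted p = 1.86e-04).

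Of the tested HoxA and HoxD genes of groups 8 to 13, only Hoxa13 was called. Hoxd10 was at 27.4, 21.6, 5.97 and 4.78 CPM in SOMB1 to SOMB4 and at 28.1, 3.53, 9.34 and 27.0 CPM in SOMD1 to SOMD4. Hoxa11 was at 18.3, 10.2, 3.36 and 2.14 against 11.5, 1.03, 1.88 and 11.7 CPM, and Hoxd13 at 19.8, 1.84, 0.336 and 0.356 against 6.54, 0.689, 2.64 and 5.91 CPM. In each gene SOMB1 was the highest SOMB library and SOMD1 and SOMD4 the highest SOMD libraries, which are also the 3 with the largest share of reads in no gene, and the groups overlapped (adjusted p = 0.89, 0.809 and 0.761). Hoxa9, Hoxa10, Hoxd8, Hoxd9, Hoxd11, Hoxd12 and Hoxb8 were not called, and Hoxb13, Hoxc12 and Hoxc13 were too low to be tested.

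On GRCm38 (GENCODE M21), Hoxc10 spans chr15:102966796-102971893 and Hoxc9 chr15:102976439-102985099, and the annotated Hoxc5 gene, chr15:102967443-103017429, overlaps both. The library kit does not mark strand, so reads from genes that overlap or lie antisense in the clusters cannot be told apart by strand.

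**Figure D4:**
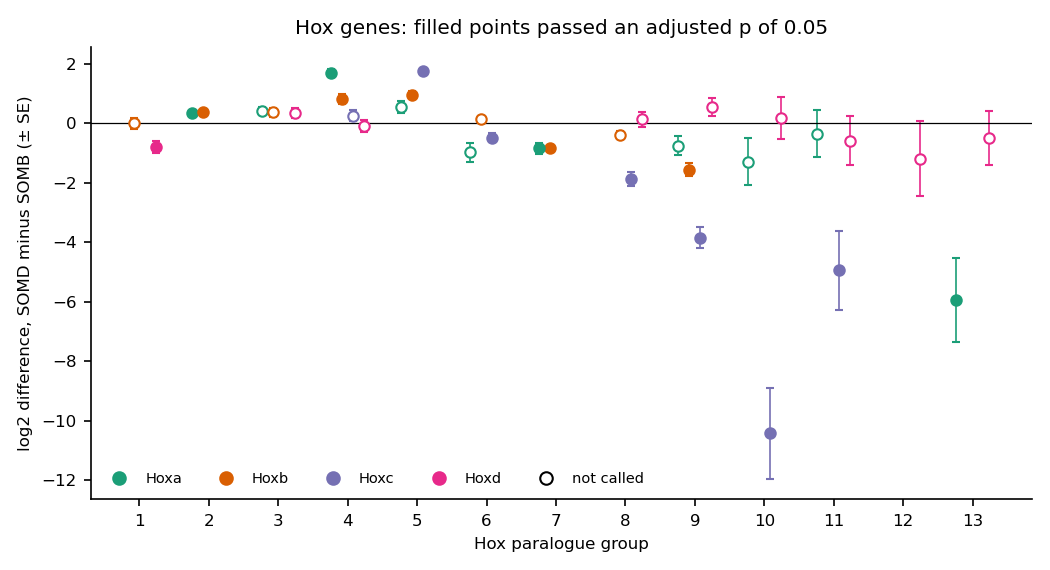
Log2 difference of SOMD minus SOMB with its SE (vertical axis) for the Hox genes counted, by paralogue group (horizontal axis), coloured by cluster; filled points passed an adjusted p of 0.05. Filled points of groups 2 to 5 lie above 0 and all those of groups 6 to 13 lie below 0; the fitted value of Hoxc10 rests on 2 reads in SOMD and is no estimate of its size.

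Factors of the limb fields differed by some of the widest margins. Pitx1, the hindlimb factor, was at 109.0, 79.1, 53.4 and 77.4 CPM in SOMB1 to SOMB4 and at 2.55, 2.76, 1.58 and 2.10 CPM in SOMD1 to SOMD4 (-5.16 ± 0.46, adjusted p = 6.60e-06). Tbx4, its target in the hindlimb, was at 38, 10.1, 2.35 and 1.64 CPM in SOMB and at or under 0.735 CPM in SOMD. SOMB1 held most of it, and the call (-4.66 ± 1.26, adjusted p = 0.0263) was lost with SOMD1 and SOMD4 summed (0.0668) and without SOMB1 or any single SOMD library (0.0552 to 0.0964). Tbx5, the forelimb and heart factor, was at 1.76, 0.204, 16.6 and 3.14 CPM in SOMB and at 45.8, 40.6, 51.0 and 50.8 CPM in SOMD (3.23 ± 0.66, adjusted p = 0.00502). These are genes of lateral plate mesoderm, from which limb buds grow, rather than of somites. In bulk samples a change in the number of cells of a type and a change in RNA per cell cannot be told apart.

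Shox2, a factor of proximal limb, was at 0 to 0.573 CPM in SOMB and at 11.8, 1.98, 2.79 and 11.3 CPM in SOMD (4.69 ± 0.70, adjusted p = 4.63e-04). Lhx9, a LIM factor of limb mesenchyme and gonad, was at 2.34, 1.22, 0.268 and 0.143 against 79.8, 9.39, 29.9 and 82.1 CPM (5.50 ± 0.76, adjusted p = 2.54e-04). Barx1, a homeobox factor of foregut and branchial arch mesenchyme, was at 0.309, 0.163, 0.134 and 0.214 against 34.3, 20.7, 14.5 and 32.4 CPM, the widest margin among the genes named for being higher (6.89 ± 0.41, adjusted p = 3.24e-07). SOMD1 and SOMD4 were the highest libraries for all 3 genes. In SOMC the means were 0.415, 3.08 and 0.696 CPM, nearer to SOMB than to SOMD.

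Among heart genes, SOMD2 was the highest library for Myh6 and Gata4, and other SOMD libraries were for Nkx2-5, Gata5 and Tbx5. Myh6, the atrial myosin heavy chain, was at 31.4 CPM in SOMD2, 0.828 to 2.49 CPM in the other SOMD libraries and 0.0817 to 0.47 CPM in SOMB (5.18 ± 1.07, adjusted p = 0.00517). Gata4, a factor of heart and gut mesoderm, was at 1.41, 0.531, 1.48 and 0.428 against 24.2, 40.5, 8.28 and 21 CPM (4.6 ± 0.51, adjusted p = 5.03e-05). Nkx2-5, the early heart factor, had 0 reads in SOMB and 83 in SOMD, with 31, 14, 3 and 35 in SOMD1 to SOMD4 (adjusted p = 0.00117). Gata5, a partner of Gata4, was higher by 1.79 ± 0.44 (0.015; 0.0567 without SOMD4). Over all genes 6.05% were called higher and 4.38% lower. Of 8 tested markers of lateral plate and heart, Gata4, Gata5, Nkx2-5 and Tbx5 were the 4 called higher and 0 were lower. With SOMD1 and SOMD4 summed 3 were higher, and Nkx2-5 was then not tested. The summed level of that list was 97.9 to 188.8 CPM in SOMB, 204.9 to 288.8 CPM in SOMC and 170.6 to 216.0 CPM in SOMD, so it did not rank the groups as the called genes did. Lists of cardiac and of skeletal muscle genes were drawn up after values had been seen. Of 8 tested cardiac genes 6 were higher (median 2.97), and of 12 tested skeletal genes 7 (median 1.46). With SOMD1 and SOMD4 summed, 4 and 6 were higher. The part of heart and limb-field cells in the muscle results was not tested. Ttn, Tnnt2 and Myl4 are made in heart as well, and SOMD2 led in all 3. Of genes of skeletal muscle and its precursors, SOMD2 was the highest SOMD library for Cdh15 (16.1 CPM) and Myf5 (6.8 CPM) but not for Myog, Pax7 or Lbx1.

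**Figure D5:**
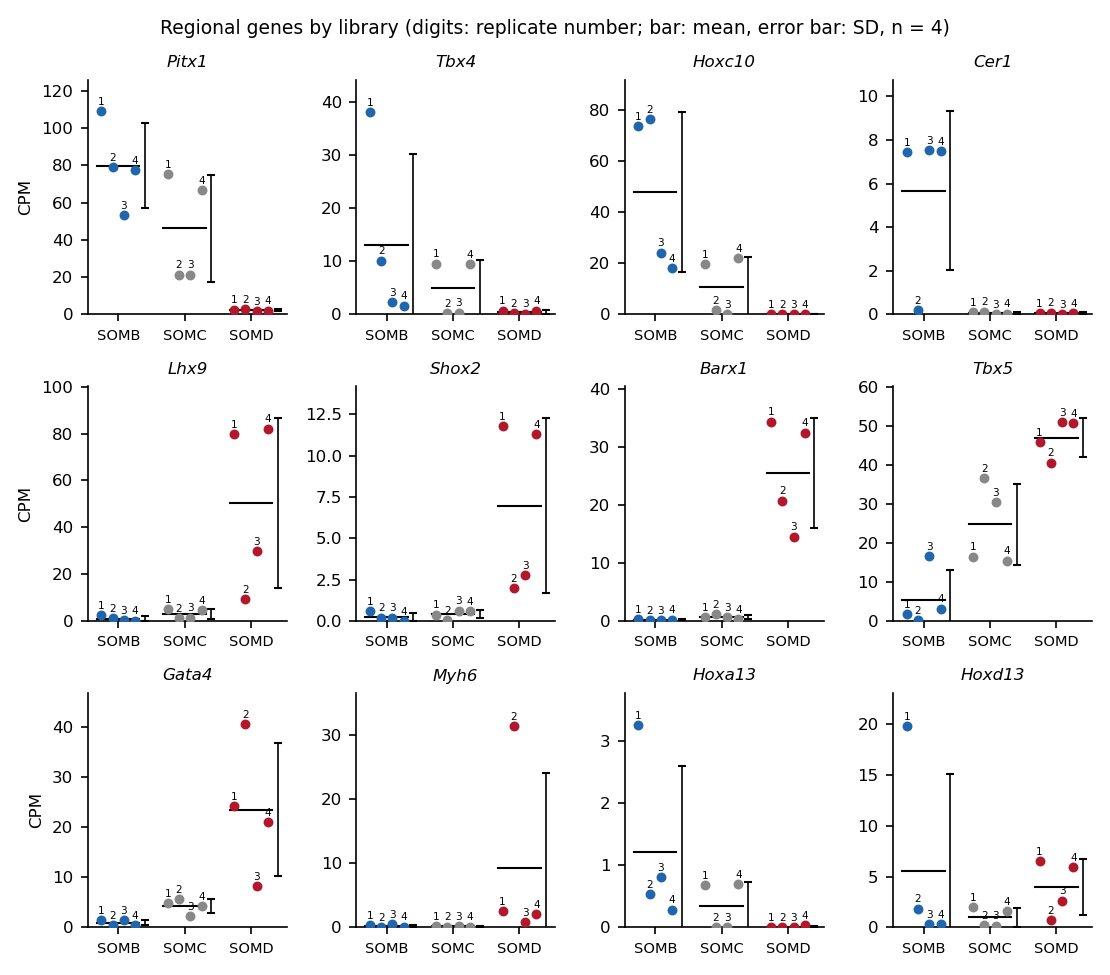
CPM of 12 genes, among them genes of limb field, heart and tail end, in the 4 libraries each of SOMB (blue), SOMC (grey) and SOMD (red). The axes are linear and start at 0. Digits are replicate numbers, horizontal bars means and error bars the SD (n = 4, cut off at 0). Lhx9, Shox2 and Barx1 are highest in SOMD1 and SOMD4, Myh6 in SOMD2, and Hoxd13 in SOMB1.

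The remaining genes of the largest differences were of mixed kinds. Rspo4, which strengthens Wnt signalling, was at 0.855 to 2.89 CPM in SOMB and 12.3 to 42.6 CPM in SOMD (4.11 ± 0.39, adjusted p = 1.13e-05). Nxf3, an RNA export factor on the X chromosome, was at 0.204 to 1.28 and 4.64 to 14.0 CPM (4.07 ± 0.49, adjusted p = 8.57e-05). C130021I20Rik was at 6.88, 4.04, 3.42 and 1.43 against 88.5, 16.8, 34.6 and 81.1 CPM (3.76 ± 0.57, adjusted p = 5.23e-04). It is annotated as an antisense RNA at chr2:33641193-33646354, and starts 681 bases from the start of Lmx1b, on the other strand. Lmx1b, a LIM factor of dorsal limb, was at 1.28 to 5.56 and 7.41 to 26.4 CPM (2.39 ± 0.44, adjusted p = 0.00211), with SOMD1 and SOMD4 highest for both genes.

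On the lower side, Cer1, a secreted inhibitor of Nodal, BMP and Wnt, was at 7.45, 0.204, 7.52 and 7.48 CPM in SOMB1 to SOMB4 and had 4 reads in SOMD. SOMB2 stood apart from the other 3 SOMB libraries, which nearly coincided, and the pooled counts differed 85.7-fold (33.2 to 316, adjusted p = 7.26e-04). Fgf18, a ligand of the FGF pathway, was at 15.7 to 24.2 and 0.981 to 2.33 CPM (-3.62 ± 0.29, adjusted p = 3.41e-06). Ifitm1, a membrane protein of early mesoderm and germ cells, was at 64.1 to 88.6 and 8.12 to 21.1 CPM (-2.49 ± 0.21, adjusted p = 4.57e-06). Gm53, a long non-coding RNA at chr11:96251105-96264868 that lies 6588 bases from Hoxb9, was at 4.97 to 10.5 and 0.0753 to 0.455 CPM (-4.78 ± 0.61, adjusted p = 1.42e-04). It was thus lower together with Hoxb9. 2610528A11Rik, a coding gene at chr14:37102140-37114022, was at 16.1 to 41.5 and 0.63 to 1.72 CPM (-4.67 ± 0.37, adjusted p = 3.17e-06), and Gpx6, of the glutathione peroxidase family, at 3.02 to 9.46 and 0.392 to 1.98 CPM (-2.51 ± 0.52, 0.00518).

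Some growth genes were called, where 10.4% of all genes were called in either direction. Of 18 cell cycle genes 1 was higher and 0 lower: Mki67, a marker of dividing cells, was at 434.4 to 643.2 and 670.9 to 712.8 CPM (0.31 ± 0.09, adjusted p = 0.0311). That call was lost when SOMD1 and SOMD4 were summed (0.0665) and without SOMB4 or any single SOMD library (0.0521 to 0.0874). Cdkn1a, which encodes the cell cycle inhibitor p21, was at 13.1, 17.4, 22.6 and 19.2 CPM in SOMB and at 9.88, 8.09, 6.48 and 8.99 CPM in SOMD (-1.10 ± 0.22, adjusted p = 0.00436), the only call of 4 tested inhibitors.

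Of 11 genes of the Lin28 progenitor network 1 was lower: Sall1, a zinc-finger factor of multipotent mesoderm, was at 187.1, 108.6, 243.6 and 195.0 against 57.4, 85.2, 78.7 and 54.8 CPM (-1.42 ± 0.19, adjusted p = 2.30e-04). Lin28a itself was at 413.5 ± 23.5 and 333.7 ± 70.8 CPM, with SOMD1 and SOMD4 at 271.5 and 274.1 CPM and SOMD2 and SOMD3 at 384.7 and 404.6 CPM (0.183). Of 14 glycolysis genes the glucose transporters Slc2a3 (-1.46 ± 0.28, adjusted p = 0.00329) and Slc2a1 (-0.72 ± 0.17, 0.0129) were lower and no enzyme was called. Slc2a1 was lost when SOMD1 and SOMD4 were summed (0.0532) and without either of them (0.0546 and 0.0561). Of 19 cholesterol synthesis genes 1 was lower, Idi1 (-0.39 ± 0.12, 0.0404; 0.0759 when summed), and it was lost without SOMB2, SOMB3, SOMB4 or any single SOMD library (0.0667 to 0.1). Of 13 immediate early and heat shock genes, which handling of tissue can raise, 0 were called by edgeR's test or DESeq2 and 0 had an unadjusted p under 0.05.

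Markers of other cell types that the sort could hold were counted in the same way. Over all genes 6.05% were called higher and 4.38% lower, and 3.64% and 2.61% with SOMD1 and SOMD4 summed. Of 6 markers of intermediate mesoderm, the source of the kidney, 4 were lower and 0 higher (2 lower when SOMD1 and SOMD4 were summed), and the summed level was 69.9 to 134.8 CPM in SOMB and 37.6 to 63.4 CPM in SOMD. Pax8 was at 9.61, 6.66, 24 and 13.3 against 2.09, 5.17, 1.58 and 1.43 CPM (-2.44 ± 0.42, adjusted p = 0.00137), and Gata3 was lower by a log2 value of -1.61 ± 0.25 (5.84e-04). Pax2 (-1.76 ± 0.49, 0.0302) and Osr1 (-0.74 ± 0.19, 0.0181) were lost when SOMD1 and SOMD4 were summed (0.0977 and 0.0678). Pax2 was lost without SOMB3, SOMB4, SOMD1, SOMD3 or SOMD4 (0.057 to 0.115) and Osr1 without SOMB4, SOMD1 or SOMD4 (0.0573 to 0.0756).

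Of 9 neural tube markers 3 were lower and 0 higher (1 lower when SOMD1 and SOMD4 were summed), with a summed level of 87.8 to 158.9 CPM in SOMB and 58.6 to 95 CPM in SOMD. Irx3, which somites express too, was lower at -0.58 ± 0.13 (0.00708). Sox1 (-1.20 ± 0.34, 0.0341) and Sox3 (-1.16 ± 0.34, 0.0415) were lost when summed (0.0936 and 0.112). Sox1 was lost without SOMB1, SOMB2, SOMB4, SOMD1, SOMD2 or SOMD4 (0.0606 to 0.139) and Sox3 without SOMB1, SOMB2, SOMD1, SOMD2 or SOMD4 (0.0562 to 0.151). Of 7 neuron markers 2 were higher. Dcx, which stabilises microtubules in migrating neurons, was at 0.794 to 1.07 CPM in SOMB and 15.1, 3.88, 5.20 and 16.0 CPM in SOMD (3.43 ± 0.40, adjusted p = 7.74e-05). Tubb3 was higher at 1.34 ± 0.32 (0.0146; 0.0503 when summed, and 0.0519 to 0.0615 without SOMB4, SOMD1 or SOMD4).

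Of 8 neural crest markers 1 was higher, Ngfr (0.57 ± 0.16, 0.0346; 0.123 when summed, and 0.0831 to 0.138 without SOMB2, SOMB4, SOMD1 or SOMD4), while Sox10 was at 0.825 ± 0.516 and 2.10 ± 0.907 CPM (0.139). Of 7 epithelium markers Krt8, Krt18 and Esrp1 were lower (-0.82 ± 0.21, -0.76 ± 0.21 and -1.60 ± 0.49; adjusted p = 0.0212, 0.03 and 0.0467), none of them when SOMD1 and SOMD4 were summed (0.0804, 0.106 and 0.132). Krt8 and Krt18 were lost without SOMB3, SOMB4, SOMD1 or SOMD4 (0.052 to 0.0874 and 0.0648 to 0.117) and Esrp1 without SOMB2, SOMB4, SOMD1, SOMD2 or SOMD4 (0.067 to 0.19). Of 10 endothelium, 4 erythroid and 5 endoderm or yolk sac markers 0 were called by edgeR's test or DESeq2, and 1 endothelium marker had an unadjusted p under 0.05. The endothelium sum was 102.1 to 272.2 CPM in SOMB and 117.7 to 295.4 CPM in SOMD. The 6 macrophage markers summed to at most 0.719 CPM in either group and were not tested.

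The last question was whether a gene changed evenly along the series or mainly at 1 end. For each gene the step from SOMC to SOMD was set against the step from SOMB to SOMC in the same fit. Of 13790 genes 13 (0.0943%) differed between the steps, 3 with the later step above the earlier and 10 below, and 730 had an unadjusted p under 0.05. With SOMC1 and SOMC4 summed as well as SOMD1 and SOMD4, 0 genes passed in edgeR's test and 406 had an unadjusted p under 0.05, while DESeq2 on the separate libraries called 20 above and 51 below. Each call below thus rests on treating these pairs as separate libraries.

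Met, the receptor that guides muscle precursors into limbs, dipped in the middle. It was at 14.5 to 19.5 CPM in SOMB, 7.74 to 10.9 CPM in SOMC and 12.9 to 16.2 CPM in SOMD, with a difference of steps of 1.67 ± 0.27 (log2, adjusted p = 0.0221; 0.353 with both pairs summed). It was also lost with SOMD1 and SOMD4 alone summed (0.0639) and without SOMC1, SOMC3, SOMC4, SOMD1 or SOMD4 (0.0581 to 0.183). Epb4.1l3, a membrane skeleton protein, was at 97.1 ± 11.4, 52.8 ± 6.70 and 62.4 ± 7.16 CPM (1.11 ± 0.20, 0.0477; 0.292 with both pairs summed), so that its change fell in the earlier step. It was also lost with SOMD1 and SOMD4 alone summed (0.1) and without SOMB1, SOMB4, SOMC1, SOMC2, SOMC3, SOMC4, SOMD1, SOMD2 or SOMD4 (0.0642 to 0.134).

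Hoxc8 stayed up in SOMC, at 103.3, 60.4, 84.9 and 110.2 CPM, before the SOMD level of 17.7 to 23.2 CPM (-2.59 ± 0.38, adjusted p = 0.0118; 0.281 with both pairs summed). Krt19, a keratin of simple epithelia, had the same shape, at 14.6 to 17.7, 15.2 to 19.3 and 5.81 to 7.92 CPM (-1.51 ± 0.19, 0.0066; 0.0995). Tdo2, an enzyme that degrades tryptophan, peaked in SOMC, at 2.16 to 3.83, 8.08 to 9.28 and 4.22 to 5.21 CPM (-2.50 ± 0.32, 0.0066; 0.0995). Wisp1, a secreted Wnt target, peaked there too, at 14.7 ± 2.02, 25.5 ± 5.08 and 13.2 ± 0.461 CPM (-1.76 ± 0.26, 0.0118; 0.281), as did Gpr50, an orphan receptor, at 26.8 ± 4.44, 41.1 ± 11.5 and 15.2 ± 2.70 CPM (-2.06 ± 0.30, 0.0118; 0.238). Krt19 and Tdo2 kept their calls without any single library, and Hoxc8, Wisp1 and Gpr50 lost theirs without SOMC1 or SOMC4 (0.112 and 0.102 in each).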

How the data were processed

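RNA from sorted paraxial mesoderm cells was sequenced from TruSeq libraries, a kit that does not mark strand, with 11 rounds of amplification per the labels' protocols. The deposited values are raw counts of reads per gene, which the authors made with TopHat2 2.0.9 and HTSeq 0.6 on mm10, per the submitters' processing notes, which also name Cufflinks and DESeq2 1.10. Neither the annotation nor the strand setting is given in the sources used here. Rows that name no gene were left out: reads in no gene made 7.57 to 12.83% of the 15 somite libraries. Groups were taken from titles.

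All 15 somite libraries were fitted together in edgeR 4.0.16 (R 4.3.3): genes with low counts were removed by filterByExpr (minimum count 10, total 15), which left 13790 of 23337 genes, libraries were scaled by TMM, and the contrasts SOMD minus SOMB and (SOMD minus SOMC) minus (SOMC minus SOMB) were tested by quasi-likelihood with Benjamini-Hochberg adjustment over all genes at 0.05. Fold changes use a prior count of 0.125, on which the fitted size of genes with few reads depends. For genes named by the rules below with 10 or fewer reads in a group, the size, where stated, is the ratio of pooled counts. Its exact 95% interval covers counting error only. Further list members, such as Mesp2, were not checked for low counts and are given with their fitted size. CPM are per 1000000 reads of TMM-scaled totals, with the SD over libraries.

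Alternatives were DESeq2 1.42.0, its size factors, unscaled totals, no filter, only the groups compared, the replicate number as a block, SOMD1 with SOMD4 (and SOMC1 with SOMC4) summed, the share of reads in no gene as a term or limit, and each library left out in turn. The fit was tested on simulated data.

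The genes named were the 10 most changed per direction with at least 5 CPM in the higher group and no overlap between groups (6 sex-linked genes set aside), a fixed set of lineage genes, up to 3 genes of lowest p per list, the listed Hox, myogenic and sclerotome factors, and the 5 of lowest p per direction for the difference between steps. Further list members were named after their values were seen. Some genes of these 3 kinds are not reported here and were left out of the list counts, though not of the fit. Members and lists were chosen with earlier results of these data known. Coordinates come from GENCODE M21 on GRCm38 (20953 of 23337 symbols matched).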

Additional observations from a re-analysis of the deposited data

Results flagged for a closer look

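A library was singled out where its value stood apart from the other 3 of its group by Dixon's test. Chance does so in about 1 in 20 groups of independent libraries. SOMD1 and SOMD4 are nearly identical, so that rate does not hold for SOMD. Of at most 422 groups of 4 libraries, 17 were singled out. Groups of very low level were passed over but are part of that number. No pattern among the 17 was tested. Many fell in SOMD2. There Myh6 stood at 31.4 CPM with the others at 0.828 to 2.49 CPM, Epha7 at 123.0 (86.8 to 90.0), Gli2 at 110.2 (90.5 to 92.6), Sim1 at 18.3 (9.79 to 10.9), Cyp26a1 at 3.44 (1.43 to 1.75), Dll3 at 3.27 (2.34 to 2.41), Sema3e at 2.5 (1.05 to 1.13) and Hoxb6 at 25.5 CPM (33.5 to 34.3). In SOMD3 Foxc1 stood low at 66.0 CPM (84.6 to 87.6) and T high at 1.05 CPM (0.392 to 0.431). In SOMD4 Six4 was at 37.6 CPM (35.5 to 35.7), a gap that is small in itself.

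In SOMB1, 3 genes stood above the other SOMB libraries and 1 below. Hoxd13 was at 19.8 CPM (0.336 to 1.84), Hoxd12 at 2.69 (0.0 to 0.0408), Tbx6, the factor of presomitic mesoderm, at 5.12 (0.408 to 1.01) and Sema3a at 55.3 CPM (62.9 to 63.5). In SOMB2 Cer1 was at 0.204 CPM while the other 3 were at 7.45 to 7.52 CPM. In SOMB3 Pax3 was at 62.2 CPM (49.5 to 51.7).

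For 7 named genes the step from SOMC to SOMD differed from the step from SOMB to SOMC on the log2 scale in edgeR's test: by 1.67 for Met, 1.11 for Epb4.1l3, -1.51 for Krt19, -2.5 for Tdo2, -1.76 for Wisp1, -2.06 for Gpr50 and -2.59 for Hoxc8. None was called once both nearly identical pairs of libraries were summed.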

How the results depend on the processing

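Every alternative kept the sign of all 138 named genes called between SOMD and SOMB in which it tested them. Against 834 higher and 604 lower genes, counts were 392 and 285 with the replicate number as a block, 502 and 360 with SOMD1 and SOMD4 summed, 436 and 323 with SOMC1 and SOMC4 summed too, and 137 and 105 among libraries with under 11% of reads in no gene, which leave 3 SOMB and 2 SOMD. Leaving out 1 library gave 470 (without SOMD4) to 961 (without SOMD3) higher and 335 to 659 lower genes for the same libraries. Without SOMD1 they were 484 and 350, and without SOMB4 542 and 416. Unscaled totals gave 886 and 513, and DESeq2 962 and 798. The replicate numbers are shared labels and were not shown to pair the libraries: deviations of same-numbered SOMB and SOMD libraries correlated at 0.37, -0.182, -0.226 and -0.222 over genes, and differently numbered ones at up to 0.417 (SOMB1 with SOMD4), 0.408 (SOMB3 with SOMD2) and 0.309 (SOMB4 with SOMD3), which a block on the number does not take up. Under the block 24 of 128 named genes were no longer called, with pairs summed 38 of 135, and with the lower share of reads in no gene 72 of 133; DESeq2 dropped none of 138. The cause was not tested.

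For the difference between steps (3 above and 10 below) the counts were 9 and 22 with the replicate block, 20 and 51 with DESeq2, 8 and 16 with the share of reads in no gene as a term, 1 and 5 with SOMD1 and SOMD4 summed, and 0 and 0 with both pairs summed or with the lower share (248 genes at an unadjusted p under 0.05 in the last). With only the groups compared 7 were above. Leaving out 1 library gave 0 (without SOMC4) to 7 (without SOMD3) above and 2 (without SOMC1 or SOMC4) to 14 (without SOMB3) below. Depth limits Myog, Myod1, Cer1, Lbx1, En1, Cdx4, Hoxc10, Hoxc11, Hoxa13 and Nkx2-5, whose lower group holds at most 8 reads.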

Other observations

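The groups below were assembled after values had been seen, so their counts describe these libraries and support nothing further. Targets of p53, the stress-response factor, were lower where called: of 17 tested, 9 were lower in SOMD, 0 higher and 8 not called, and 6 were lower with SOMD1 and SOMD4 summed, where 4.38% of all genes were called lower. Ccng1, which encodes cyclin G1, was at 72.2, 80.6, 72.6 and 87.1 CPM in SOMB1 to SOMB4 and at 39.2, 39.4, 47.4 and 42.5 CPM in SOMD1 to SOMD4, a log2 difference of -0.89 ± 0.10 (edgeR, adjusted p = 4.87e-05). Eda2r, a receptor of the tumour necrosis factor family, was at 16.8 to 19.5 and 7.59 to 11.5 CPM (-1.03 ± 0.14), and Pmaip1, which encodes the death-promoting protein Noxa, at 4.63 to 5.27 and 0.603 to 1.82 CPM (-1.88 ± 0.27). The groups did not overlap in these 3 genes or in Cdkn1a. Mdm2, the feedback inhibitor of p53, was at 58.0 to 84.3 and 64.0 to 69.0 CPM and was not called (adjusted p = 0.568).

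Secreted Wnt modulators changed in both directions: of 13 tested, 5 were higher and 3 lower, and 4 and 2 with SOMD1 and SOMD4 summed, where over all genes 6.05% were called higher and 4.38% lower (3.64% and 2.61% summed). Wif1, which binds Wnt proteins, was at 0.713 to 1.51 CPM in SOMB and 4.39 to 9.61 CPM in SOMD (2.61 ± 0.26, adjusted p = 1.83e-05), and Sfrp5, a related inhibitor, at 0.0713 to 0.336 and 1.92 to 2.76 CPM (3.73 ± 0.34, adjusted p = 7.58e-06). Frzb, another Wnt-binding protein, was lower, at 46.3 to 69.9 and 21.4 to 33.3 CPM (-1.09 ± 0.18, adjusted p = 9.28e-04). Among 18 laminin and basement membrane genes 2 were higher and 1 lower, counts near those shares of all genes, and 2 and 0 with SOMD1 and SOMD4 summed. Lama2, the laminin chain of muscle basement membrane, was at 0.499 to 1.41 and 2.41 to 7.78 CPM (2.51 ± 0.47, adjusted p = 0.00269), and Lamc3 at 0.408 to 0.927 and 3.46 to 7.85 CPM (3.23 ± 0.35, adjusted p = 3.89e-05). Lama1, Lamb1 and Lamc1, the chains of early embryonic laminin, were at 80.5 to 354.4 CPM over all 8 libraries and were not called (adjusted p = 0.172, 0.108 and 0.493).

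Of 16 limb field factors 10 were higher and 3 lower, and 8 and 2 with SOMD1 and SOMD4 summed, against the same shares of all genes. Tfap2c, a factor of limb ectoderm and crest, was at 2.73, 1.22, 0.537 and 0.356 CPM in SOMB and at 25.2, 4.22, 10.7 and 23.8 CPM in SOMD (3.63 ± 0.62, adjusted p = 0.00144). Fgf10, the ligand that starts limb outgrowth, was at 12.5 to 20.4 and 22.2 to 42.7 CPM (1.01 ± 0.20, adjusted p = 0.00383). SOMD1 and SOMD4 were the highest libraries in both genes.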
